A study of Mus musculus with 16 samples.

Results

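A set of 10 genes of hepatic drug and bile transport were followed across the series: 4 Slco uptake transporters (Slco1a1, Slco1a4, Slco1b2 and Slco2b1) and 6 Abc efflux pumps (Abcc2, Abcc3, Abcc4, Abcc6, Abcg2 and Abcb4). They were taken by symbol from the 78317 gene rows of the deposited tables, and all 10 passed the filter on low counts that left 14781 genes for testing. Liver RNA came from 16 wild-type C57BL/6J mice, an inbred laboratory strain, in 4 groups of 4. Females and males were fed either a normal chow, in which fat gave 4.5% of the calories, or a high fat diet, in which it gave 60%. The animals arrived at 6 weeks of age and ate their diet for 10 weeks. The diets came from different makers, so the groups can differ in more than fat content, and the hour of tissue collection is not given in the sources used here. RNA was isolated from homogenised powder of whole liver. In such a bulk sample, fewer cells of a type and less RNA per cell cannot be told apart. The mice were housed in groups, and the labels do not tie libraries to cages or litters.

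Slco genes encode organic anion transporting polypeptides, membrane proteins of the blood-facing (sinusoidal) side of hepatocytes that take up bile acids, steroid conjugates, thyroid hormones and many drugs. Abc genes encode pumps that use ATP to expel substrates. Abcc2, Abcg2 and Abcb4 sit at the canalicular membrane and face bile, whereas Abcc3, Abcc4 and Abcc6 sit at the basolateral membrane and face blood. Several of these genes are known in mouse liver for differences between the sexes, which the pituitary rhythm of growth hormone and sex steroids set.

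Slco1b2, Slco1a4 and Slco1a1 lie in a single cluster of related genes on mouse chromosome 6. In the RefSeq order of protein-coding genes, Slco1a4 and Slco1a1 are next to each other. Their upstream sequences are shown because these neighbours differed between the sexes in opposite directions, as described below. Each line gives the 250 bases before the annotated start, 5′ to 3′, from RefSeq on build GRCm38.p6. The deposited counts were made on GRCm39, so these positions are for the older build.
Slco1a1, chr6:141946963-141947212, minus strand: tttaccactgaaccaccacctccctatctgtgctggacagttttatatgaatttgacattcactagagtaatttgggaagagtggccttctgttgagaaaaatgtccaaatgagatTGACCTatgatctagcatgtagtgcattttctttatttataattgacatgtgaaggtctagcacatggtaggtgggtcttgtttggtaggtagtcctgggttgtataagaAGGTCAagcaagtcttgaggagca
Slco1a4, chr6:141856221-141856470, minus strand: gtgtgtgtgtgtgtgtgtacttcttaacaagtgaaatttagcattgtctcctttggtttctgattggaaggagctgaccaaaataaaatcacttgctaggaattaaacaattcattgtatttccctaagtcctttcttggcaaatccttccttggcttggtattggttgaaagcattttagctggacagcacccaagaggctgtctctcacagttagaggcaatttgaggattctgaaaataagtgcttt
Slco1b2, chr6:141629268-141629517, plus strand: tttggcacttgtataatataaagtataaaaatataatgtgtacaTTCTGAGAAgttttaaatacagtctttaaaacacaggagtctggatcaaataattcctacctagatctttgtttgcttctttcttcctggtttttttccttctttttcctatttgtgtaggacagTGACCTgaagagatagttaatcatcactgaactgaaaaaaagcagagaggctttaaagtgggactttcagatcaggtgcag
Capitals mark matches to any of 8 motifs searched on both strands: TTCNNNGAA (STAT5 type), the HNF1 type motif, CAAAGTCCA (HNF4 type), AGGTCA (the hexamer bound by many nuclear receptors), TGACNNNGC (NRF2 type), ATCAAT (HNF6 and CUX2 type), CACGTG (E-box) and TTATGNAA (D-box type). The Slco1a1 window held AGGTCA on each strand, at positions -134 to -129 and -24 to -19 from the start. The Slco1b2 window held the STAT5 type motif and AGGTCA, and the Slco1a4 window held no match. Of 32851 promoter windows of this length, 14.0% held AGGTCA and 7.02% held TTCNNNGAA. The NRF2 type motif was in 10.2% of them, the E-box in 6.02% and the D-box type motif in 3.07%. Windows were found for 8 of the 10 genes, 13 windows in all, so genes with several windows count more than once. AGGTCA occurred in 5 of these 13, the NRF2 type motif in 3 (1 of Abcc2 and 2 of Abcc4), TTCNNNGAA in 2, and the E-box and the D-box type motif in 1 each. The HNF1 type, the HNF4 type and the HNF6 and CUX2 type occurred in 0 of them. In all promoter windows their shares were 0.371%, 0.384% and 6.72%. A match is a string of letters and not a shown binding site.

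Before the results, some facts of the libraries are needed. Total expected counts ran from 22228115 to 41420589 per library, and the recorded sex matched Xist and 4 Y-linked genes in 16 of 16 libraries. Male high fat diet replicates 2 and 3 were unusually close, with a median absolute log2 difference of 0.123 over all tested genes and 0.0326 over the 10 transporters, against 0.165 to 0.364 over all genes for the other pairs within groups. They were counted as separate samples, as labelled, and the tests were repeated with the pair averaged. The widest differences over all genes were those of female high fat diet replicate 1 from replicates 2, 3 and 4 of its group (0.364, 0.352 and 0.324). Hepatocyte markers were abundant: Alb took 7.39% to 9.17% of counts in females and 3.73% to 6.94% in males. In males all high fat diet libraries had a smaller Alb share than all normal diet libraries (4.87% against 6.47%, exact two-sided permutation test, p = 0.0286, the smallest that 4 against 4 allows, and 0.114 after adjustment over 4 such tests).

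The transporters covered a wide range of levels, compared here in TPM, which divides by transcript length. Slco1b2, a hepatocyte carrier of unconjugated bile acids and many drugs, was highest in every group, at 772 ± 25.6 TPM (SD, n = 4) in females on the normal diet and 619.7 ± 85.8 TPM in males. Abcc4 was lowest in every group, with group means from 0.432 TPM in males on the high fat diet to 1.74 TPM in females on the normal diet. In females on the normal diet the genes between these extremes followed in the order Abcc2, Abcb4, Slco1a4, Abcc3, Slco1a1, Abcg2, Slco2b1 and Abcc6. The ranges of neighbours overlapped from Abcc2 down to Slco2b1, so only the top gene, Abcc6 and Abcc4 stood clear in that order. In males on the normal diet the second place belonged to Slco1a1 at 228.9 ± 54.3 TPM, its range overlapping that of Abcc2, and Slco1a4 lay near the bottom with 21.1 ± 9.25 TPM. Slco1a1 held second place in high fat diet males too, whereas in high fat diet females it lay above Abcc4 alone, at 7.28 ± 6.55 TPM.

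Summed over the 4 uptake genes, RNA amounted to 957.7 ± 32.8 TPM (SD, n = 4) in females and 900.4 ± 133 TPM in males on the normal diet. Under high fat feeding the sums were 1017 ± 235 and 1063 ± 180 TPM. Slco1b2 made up most of each sum. Its share was 80.6% ± 0.885 in females and 68.9% ± 2.48 in males on the normal diet, and 87.6% ± 2.24 and 77.2% ± 3.95 on the high fat diet. Slco1a1 contributed 25.2% ± 2.67 in males and 5.85% ± 1.02 in females on the normal diet, and 17.8% ± 4.74 and 0.657% ± 0.523 on the high fat diet. The efflux genes summed to 327.8 ± 55.5 TPM in females and 405.4 ± 24.8 TPM in males on the normal diet. Within that sum Abcg2 contributed 12.3% ± 1.3 in females and 24% ± 3.05 in males. These shares describe the libraries and were not tested.

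**Figure D1:**
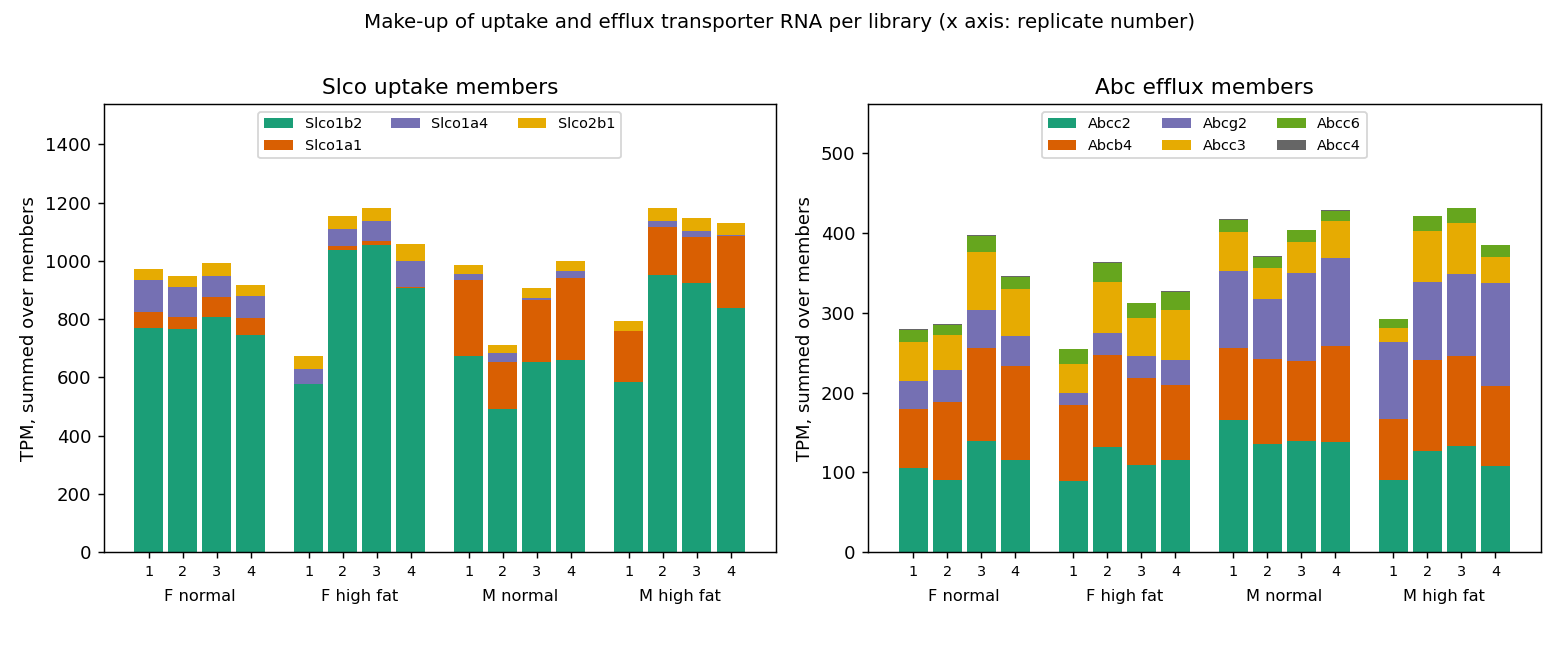
Stacked bars of TPM per library (y axis, summed over the genes) for the 4 Slco uptake genes on the left and the 6 Abc efflux genes on the right, by group and replicate number (x axis). Slco1b2 fills most of each uptake bar, the Slco1a1 segment is large in males and nearly absent in females on the high fat diet, and the Abcg2 segment is larger in the 8 male libraries than in the 8 female ones.

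The first question was how the high fat diet changed these transporters in females. Slco1a1, Abcg2 and Abcc4 fell, and no transporter rose (0 of 10). The other 7 did not pass the edgeR quasi-likelihood test at an adjusted p of 0.05. Of all tested genes 11.5% were called in this comparison, 5.74% higher and 5.76% lower. In the same 3 transporters the diet groups did not overlap, against 18.3% of all tested genes. The median log2 fold change was -0.31 over the 10 genes and 0.00 over all tested genes.

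Slco1a1 (ENSMUSG00000041698.12) encodes an uptake carrier for steroid sulfates and other organic anions. In females on the normal diet its 4 libraries had 171, 139, 190.4 and 173 CPM (expected counts scaled to the TMM-adjusted library size). On the high fat diet they had 5.17, 29.9, 36.7 and 3.1 CPM. The groups did not overlap, and replicates 1 and 4 of the high fat diet lay far below replicates 2 and 3. The fall was 9.0-fold (log2 -3.17 ± 0.62, SE, edgeR adjusted p = 0.00684). Leaving out any 1 library kept it called, with log2 fold changes from -3.72 to -2.82. With only the 2 female groups in the fit the same change missed the threshold (adjusted p = 0.0556, range over all settings 3.98e-06 to 0.0556).

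Abcg2 (ENSMUSG00000029802.14) encodes the breast cancer resistance protein, a pump for sulfate conjugates, urate and porphyrins. Female normal diet libraries had 63.1, 73.4, 76.6 and 64.2 CPM, and high fat diet libraries had 22.1, 42.4, 43.3 and 43.2 CPM. All high fat values were lower than all normal diet values, and replicate 1 was the lowest. The fall was 1.84-fold (log2 -0.88 ± 0.18, SE, adjusted p = 0.00561). Without high fat diet replicate 1 the group means moved closer but the call held, as it did in every setting tried, with adjusted p from 0.000138 to 0.0213.

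Abcc4 (ENSMUSG00000032849.15) encodes a basolateral pump for bile acids, cyclic nucleotides and steroid conjugates. It had 9.19, 9.75, 8.09 and 6.54 CPM in females on the normal diet and 4.11, 6.05, 3.74 and 5.96 CPM on the high fat diet. The groups did not overlap, although the gap between the lowest and the highest was small. The fall was 1.69-fold (log2 -0.76 ± 0.20, adjusted p = 0.0193). The call was lost when normal diet replicate 1 or 2 was left out (adjusted p of 0.0617 and 0.0711), when high fat diet replicate 1 or 3 was left out (0.0554 and 0.0567), and by limma on log2(TPM + 1) (-0.30, adjusted p = 0.0827) and log2(TPM + 0.1) (-0.49, adjusted p = 0.122). The adjusted p over its other settings was as low as 0.00573.

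Among uptake genes, Slco1a4, a carrier of bile acids, cardiac glycosides and drugs that is known to respond to the receptors PXR and CAR, had 365.7, 338, 210.2 and 234 CPM on the normal diet and 135, 152, 188 and 232.5 CPM on the high fat diet in females. Of the 4 high fat libraries 3 lay below all normal diet libraries. The log2 fold change of -0.70 ± 0.59 was not called (adjusted p = 0.484). It was called with only the 2 female groups in the fit (adjusted p = 0.049), the lowest of its settings. Slco1b2 averaged 2080 ± 110 CPM (SD, n = 4) and 2036 ± 530 CPM, with its lowest library, 1318 CPM, in high fat diet replicate 1. Slco2b1, a carrier of steroid sulfates and thyroid hormone, averaged 142 ± 7.44 and 146 ± 9.27 CPM. For neither did the test pass, and the log2 fold change of Slco1b2 was -0.03 ± 0.19 by TMM scaling but 0.17 on log2(TPM + 1). In TPM all high fat diet values of Slco2b1 (45.93 to 55.68) exceeded all normal diet values (36.66 to 45.81). Its log2 fold change ran from -0.0025 to 0.29 over all settings and was not called in any (adjusted p from 0.0593 to 0.993).

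The 4 remaining pumps were not called in females. Abcc2, which exports bilirubin glucuronides and glutathione conjugates into bile, went from 446.7 ± 60.2 to 372.5 ± 96.6 CPM (SD, n = 4), with 233.9 CPM in high fat diet replicate 1. Abcb4, which moves phosphatidylcholine into bile, went from 340.6 ± 54 to 296 ± 35.5 CPM. Abcc3, a basolateral exporter of glucuronides, went from 237 ± 35.6 to 186 ± 43 CPM, and Abcc6, an exporter linked to ATP release from hepatocytes, from 63.4 ± 9.27 to 73.4 ± 7.28 CPM. Their log2 fold changes lay between -0.35 and 0.21, with adjusted p from 0.368 to 0.509. That of Abcc6 ran from 0.15 to 0.46 over all settings and was not called in any (adjusted p from 0.0685 to 0.633).

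In males Abcc4 fell and no other transporter was called (1 of 10, against 11.4% of all tested genes, 6.03% higher and 5.36% lower). Male normal diet libraries had 3.13, 5.22, 3.02 and 3.6 CPM, and high fat diet libraries had 2.01, 1.94, 1.79 and 2.04 CPM. All high fat values were below all normal diet values and closely spaced, and Abcc4 was the 1 transporter without overlap, against 18.5% of all tested genes. The fall was 1.94-fold (log2 -0.96 ± 0.21, SE, adjusted p = 0.00733). It was called in all 16 fits that left out 1 library, but not by limma on log2(TPM + 1) (-0.31, adjusted p = 0.115) or log2(TPM + 0.1) (-0.70, adjusted p = 0.0515). The median log2 fold change of the 10 genes was -0.10, against 0.01 over all tested genes.

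Slco1a1 in males had 848.7, 462.9, 611 and 859.8 CPM on the normal diet and 499.9, 473.5, 451.6 and 675.5 CPM on the high fat diet, and the groups overlapped. Its log2 fold change was -0.41 ± 0.57 (adjusted p = 0.694). Abcg2 had 179, 126, 182.5 and 194 CPM on the normal diet and 160.3, 164, 175 and 210.1 CPM on the high fat diet, with a log2 fold change of 0.06 ± 0.18 (adjusted p = 0.871). Slco2b1 averaged 109 ± 9.37 CPM (SD, n = 4) on the normal diet and 136 ± 16.9 CPM on the high fat diet, where 3 of 4 libraries exceeded all normal diet libraries. Its log2 fold change of 0.31 ± 0.10 missed the threshold (adjusted p = 0.0601). It passed by DESeq2 (0.0363), on log2(TPM + 1) (0.0265), and when replicate 1 of the male (0.0204) or of the female (0.0498) high fat diet group was left out. The Slco2b1 value carries a further limit, since its exons overlap 2 genes on the other strand in GENCODE M21 and no source used here says that strand was used in counting.

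The male high fat diet group was not uniform. Slco1a4 had 9.22, 65.1, 72.9 and 11.2 CPM in its 4 libraries, against 71.1, 93.5, 26.2 and 76.9 CPM on the normal diet. Abcc3 had 71.5, 256, 258.9 and 126 CPM, against 224, 160, 161 and 198 CPM. In both genes replicates 2 and 3, the unusually close pair, were high and replicates 1 and 4 low, and the diet groups overlapped. Abcc6 ordered the 4 libraries in a similar way, with 43.4, 76.6, 77.5 and 55.9 CPM. Deviations from group means over the 16 libraries had a Pearson r of 0.75 between Slco1a4 and Abcc3 and of 0.93 between Abcc3 and Abcc6. The points share their library and its scaling, so these values are descriptions only. Alb divided the same libraries, with 37643 and 39443 CPM in replicates 1 and 4 and 58217 and 58556 CPM in replicates 2 and 3. Its part in these values was not tested. Cyp2b9, a P450 gene of the phenobarbital-responsive Cyp2b family chosen here after its values were seen, had 3.31, 96.2, 95.8 and 6.51 CPM in the same 4 libraries. The changes of Slco1a4 (log2 -0.76 ± 0.60) and Abcc3 (-0.06 ± 0.31) in males were not called.

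**Figure D2:**
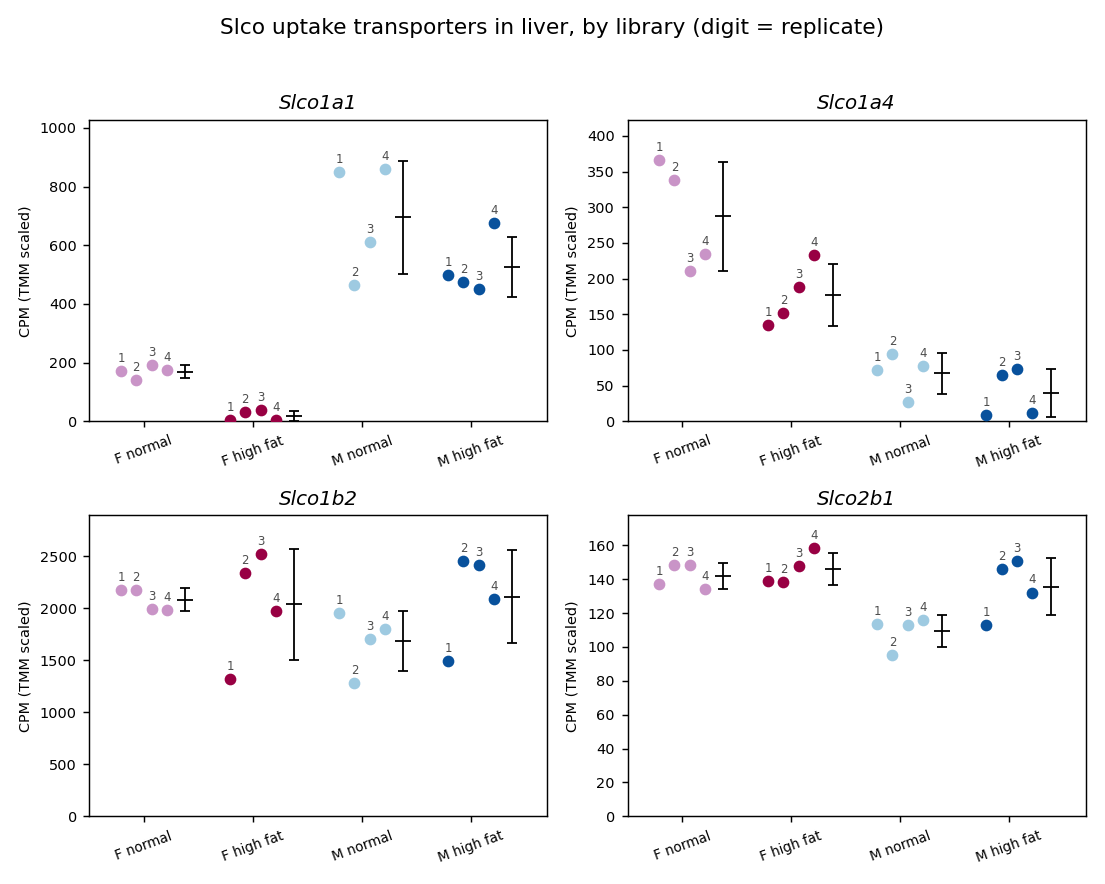
CPM of the 4 Slco uptake genes (y axis, linear from 0) in each library of the 4 groups (x axis, F female, M male). Points carry the replicate number and black bars show the mean and SD of 4 libraries. Slco1a1 is below 40 CPM in all 4 female high fat libraries, and Slco1a4 splits the male high fat group into replicates 2 and 3 against 1 and 4.

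**Figure D3:**
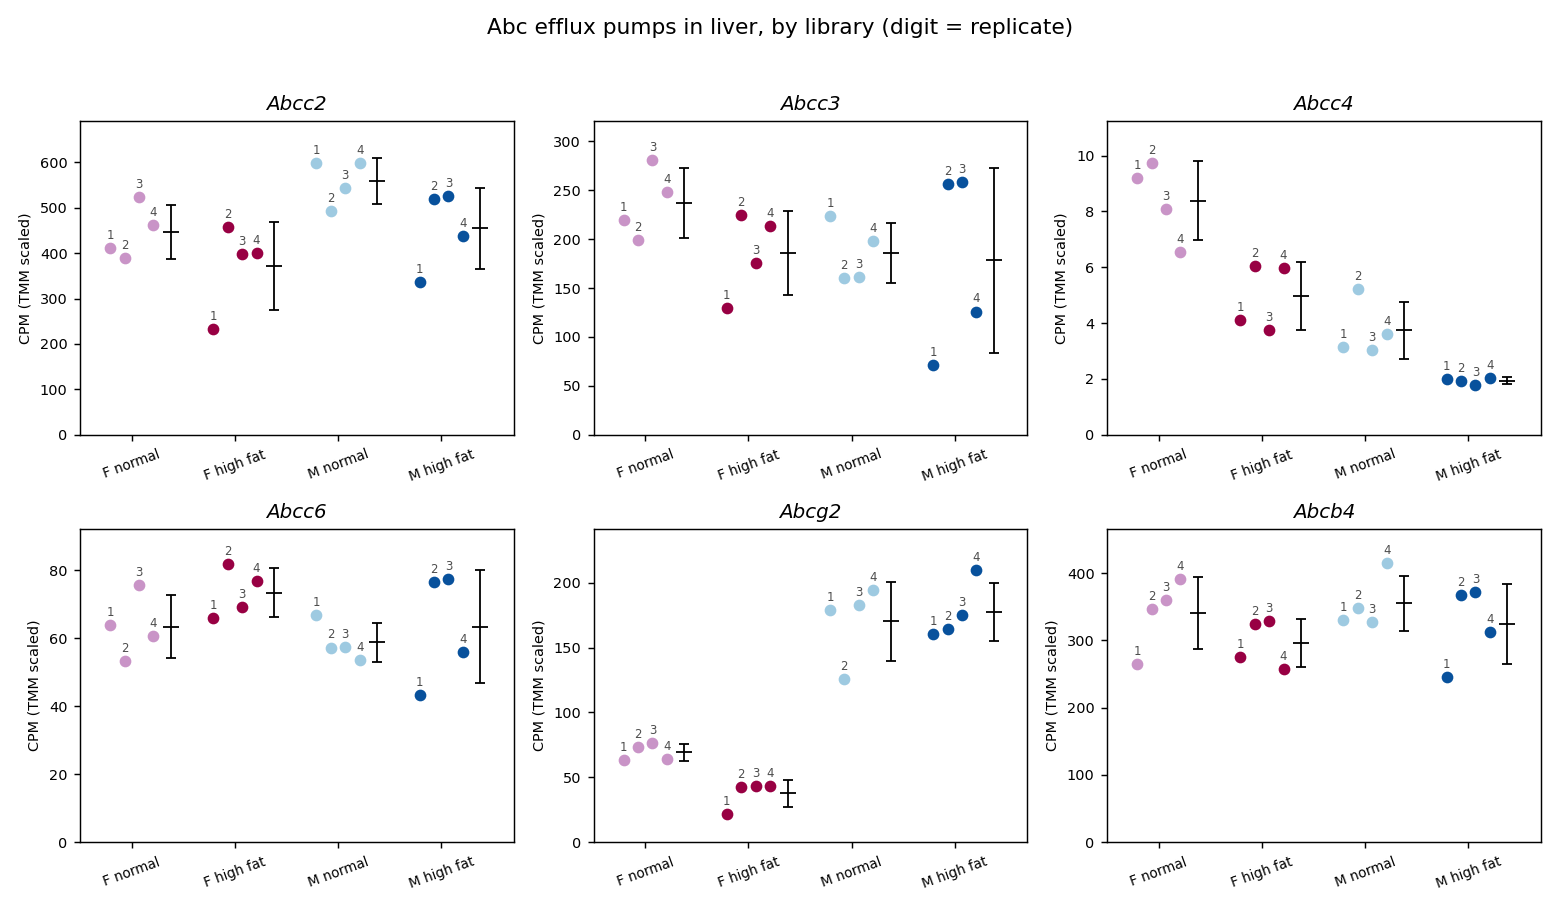
CPM of the 6 Abc efflux genes (y axis, linear from 0) in each library of the 4 groups (x axis, F female, M male), with replicate numbers and the mean and SD of 4 libraries in black. Abcc4 is lower on the high fat diet in both sexes without overlap, and the 8 male Abcg2 values all exceed the 8 female ones.

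Whether the diet acted differently in the sexes was tested with the interaction, the change in females minus the change in males. No transporter passed (0 of 10 by edgeR, against 0.677% of all tested genes, 0.264% positive and 0.413% negative), while 2 had an unadjusted p under 0.05. These were Slco1a1, with -2.76 ± 0.82 (SE, adjusted p = 0.17), and Abcg2, with -0.94 ± 0.26 (adjusted p = 0.109). DESeq2 called both, with adjusted p of 0.0416 and 0.0289. In none of the 16 fits with 1 library left out did either pass, with adjusted p from 0.103 to 0.29 for Slco1a1 and from 0.0959 to 0.214 for Abcg2. The falls of Slco1a1 and Abcg2 called in females are therefore not shown by edgeR to differ from the changes in males. Abcc4, called in both sexes, had an interaction of 0.20 ± 0.29.

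**Figure D4:**
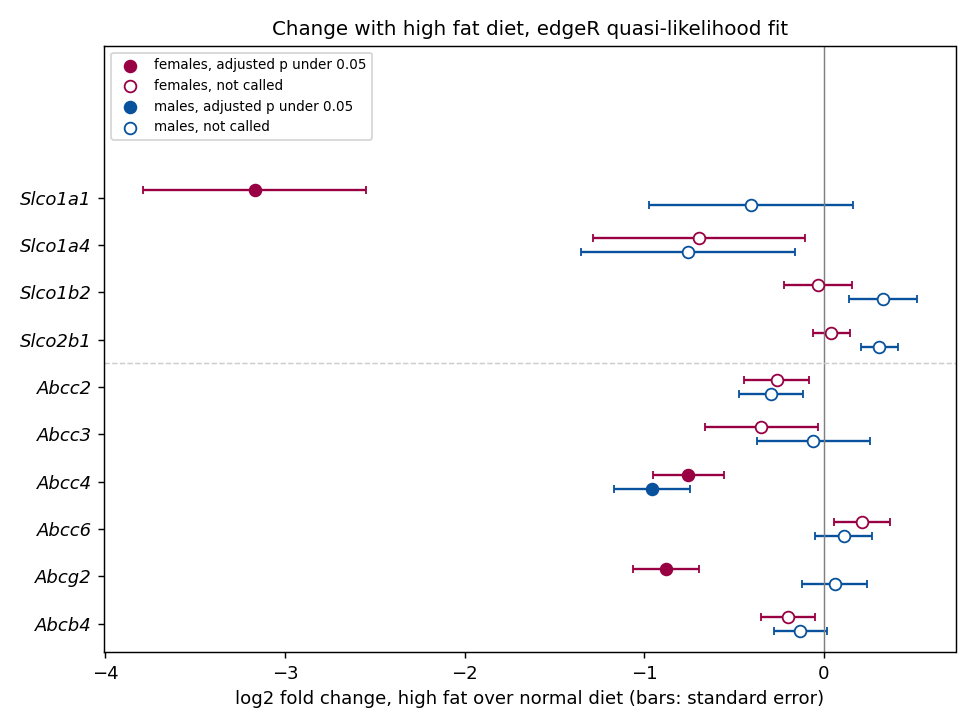
log2 fold change of high fat over normal diet (x axis) for each of the 10 transporters (y axis) in females and males, with standard errors as bars and filled symbols where the adjusted p was under 0.05. Slco1a1 in females lies farthest from 0 at -3.17, and Abcc4 is filled in both sexes.

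The sexes were compared on each diet. On the normal diet 5 of 10 transporters differed: Slco1a4, Slco2b1 and Abcc4 were higher in females, and Slco1a1 and Abcg2 were higher in males. Of all tested genes 15.7% were called, 7.03% higher and 8.68% lower in females. In 6 of the 10 the groups did not overlap, against 22% of all tested genes. The additional one was Slco1b2, with 1980 to 2180 CPM in females and 1278 to 1952 CPM in males, whose difference was not called (log2 0.30 ± 0.19, adjusted p = 0.293).

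Slco1a4 was 4.28-fold higher in females (log2 2.10 ± 0.61, SE, adjusted p = 0.0353), and its neighbour Slco1a1 was 4.13-fold higher in males (log2 -2.05 ± 0.59, adjusted p = 0.0333). For both genes all 4 libraries of a sex lay on one side of the other sex. Each call was close to the threshold in the edgeR fit to all 16 libraries. That of Slco1a1 was lost when any 1 of the 8 normal diet libraries was left out except male replicate 2, with adjusted p of 0.0574 to 0.0961. That of Slco1a4 was lost with any of them left out except female replicate 3, with adjusted p of 0.0527 to 0.096. Neither was called without the filter on low counts (0.0753 and 0.0779). The direction was the same in each of these fits. Of all 25 settings, which include other tests, 9 lost the call for each gene. Over these settings adjusted p ran from 2.22e-05 to 0.0961 for Slco1a1 and from 0.00547 to 0.096 for Slco1a4.

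The ratio of Slco1a4 to Slco1a1 in TPM shows the contrast within each library. In normal diet libraries it was 1.05 to 2.34 for the 4 females and 0.0407 to 0.191 for the 4 males. Under high fat feeding it was 25, 4.86, 4.83 and 70.9 in females and 0.0187, 0.131, 0.154 and 0.0161 in males. Every female library had a higher ratio than every male library on either diet. The near copies share few stretches of sequence: 2.15% of the distinct 50-base words of Slco1a1 transcripts and 2.68% of those of Slco1a4 occur in another gene in GENCODE M21. The share of reads that fit more than 1 gene was not measured. When counts of Slco1a1, Slco1a4, Slco1a5 and Slco1a6 were added into 1 row, the sum was lower in females than in males on the normal diet (log2 -0.74 ± 0.19, adjusted p = 0.012). It also fell with the high fat diet in females (-1.22 ± 0.19, adjusted p = 0.000541), and its change in males was not called (-0.43 ± 0.19, adjusted p = 0.137).

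Abcg2 was 2.46-fold higher in males on the normal diet (log2 -1.30 ± 0.18 for females over males, adjusted p = 0.00015), with 63.1 to 76.6 CPM in females and 126 to 194 CPM in males. Abcc4 was 2.23-fold higher in females (log2 1.15 ± 0.20, adjusted p = 0.000953). Both were called in every setting tried. Slco2b1 was 1.3-fold higher in females (log2 0.38 ± 0.10, adjusted p = 0.0198), and this call was lost without female normal diet replicate 2 (0.0599) or male normal diet replicate 2 (0.0663). Abcc2, Abcc3, Abcc6 and Abcb4 were not called, with log2 differences from -0.32 to 0.35.

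On the high fat diet 4 of 10 were called, against 20.4% of all tested genes (8.84% higher and 11.6% lower in females), and these were the 4 whose groups did not overlap (22.7% of all tested genes). Slco1a1 was 28-fold higher in males (log2 -4.81 ± 0.67, SE, adjusted p = 0.000435), with 3.1 to 36.7 CPM in females and 451.6 to 675.5 CPM in males. Abcg2 was 4.7-fold higher in males (log2 -2.23 ± 0.19, adjusted p = 4.42e-07). Abcc4 was 2.56-fold higher in females (log2 1.35 ± 0.21, adjusted p = 0.000337). Slco1a4 was 4.46-fold higher in females (log2 2.16 ± 0.62, adjusted p = 0.0264). The Slco1a4 call was lost without female high fat diet replicate 4 (0.0639) or male high fat diet replicate 4 (0.061), without the filter (0.058) and with only the 2 groups in the fit (0.0847). Slco2b1, called on the normal diet, had 139 to 158 CPM in females and 113 to 151 CPM in males on the high fat diet (log2 0.11 ± 0.10, adjusted p = 0.486). Whether its sex difference changed with diet is the interaction, -0.27 ± 0.15 (adjusted p = 0.461). The sex and diet comparisons share their libraries, so they are not independent of each other.

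**Figure D5:**
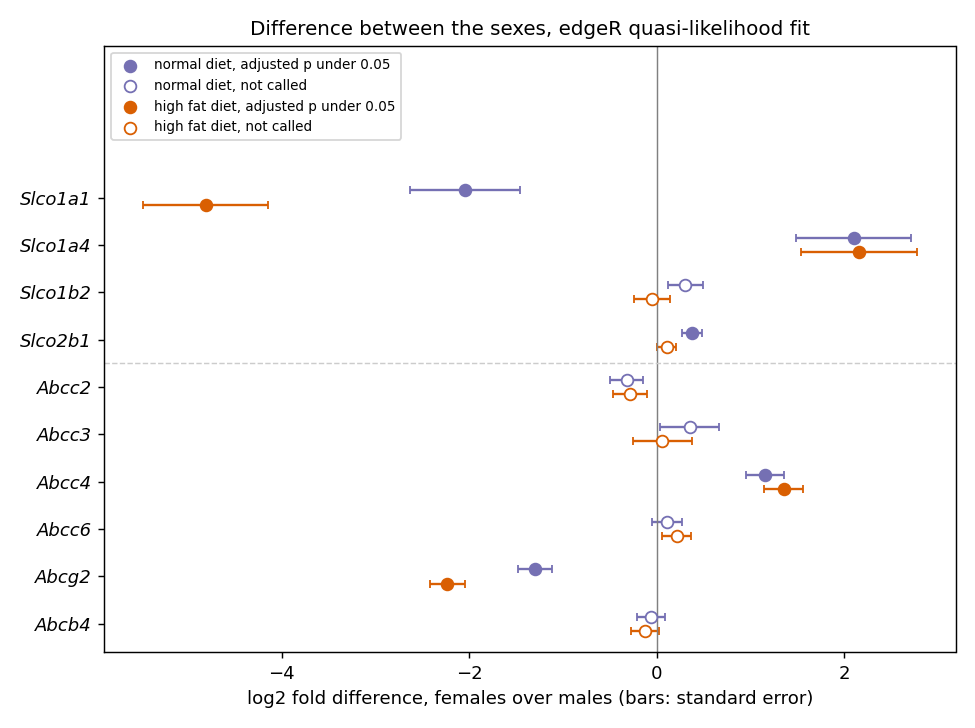
log2 fold difference of females over males (x axis) for the 10 transporters (y axis) on each diet, with standard errors as bars and filled symbols where the adjusted p was under 0.05. Slco1a4 and Abcc4 lie to the right of 0 and Slco1a1 and Abcg2 to the left on both diets.

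Other Slco genes were mostly silent in these livers. Of 11 further family members, 9 were too low to be tested, among them Slco1a5 and Slco1a6. Slco3a1 was tested and not called in any diet comparison. Slco2a1, which encodes a prostaglandin transporter, fell in males from 58 ± 5.88 to 18.1 ± 1.79 CPM (SD, n = 4), with 55.1, 66.7, 54.3 and 55.9 CPM on the normal diet and 15.9, 17.8, 18.8 and 20.1 CPM on the high fat diet. Its log2 fold change in males was -1.68 ± 0.10 (SE, adjusted p = 1.71e-08). In females it had 34.9 to 43 CPM on the normal diet and 36.7 to 42 CPM on the high fat diet. Its interaction was 1.67 ± 0.14 (adjusted p = 5.54e-06), and on the normal diet it was lower in females (log2 -0.56 ± 0.10, adjusted p = 0.00116). These 3 calls held in every setting tried. On the high fat diet the direction was the opposite, higher in females without overlap (log2 1.11 ± 0.10, adjusted p = 8.67e-07).

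Of 19 further Abcb, Abcc and Abcg genes, 17 were tested. The diet was associated with 3 calls in females (1 higher and 2 lower) and 0 in males by edgeR, where the interaction also gave 0. The shares over all tested genes were 11.5%, 11.4% and 0.677%. In females Abcg5, which forms a sterol exporter with Abcg8, fell from 130 ± 5.98 to 85.9 ± 17 CPM (SD, n = 4, log2 -0.59 ± 0.13, adjusted p = 0.00682). This call was lost on log2(TPM + 1) (0.0614) and log2(TPM + 0.1) (0.0615). Abcb10, a mitochondrial transporter, fell (log2 -0.37 ± 0.11, adjusted p = 0.0316) and Abcc1, a broad exporter of conjugates, rose (0.87 ± 0.26, adjusted p = 0.0389). Abcc1 was low, at 1.16 ± 0.243 CPM (SD, n = 4) on the normal and 2.11 ± 0.467 CPM on the high fat diet. Its female libraries held 28 to 71 counts. By limma on log2(TPM + 1) the Abcb10 change was -0.12 (adjusted p = 0.354), and it also missed the threshold without the filter (0.0745) and with only the 2 groups in the fit (0.0797). It was not called with female normal diet replicate 1 left out (0.115), and likewise 2 (0.0807) or female high fat diet replicate 1 (0.0765) or 4 (0.105). Abcc1 missed the threshold with any of these left out: female normal diet replicate 2 (0.0899), 3 (0.085) or 4 (0.0954) or female high fat diet replicate 3 (0.0564) or 4 (0.131). Without the filter on low counts Abcc1 was not called either (0.069).

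The multidrug pump genes next to Abcb4 on chromosome 5 differed between the sexes on the normal diet. Abcb1a had 17.5 to 28.4 CPM in females and 2.92 to 5.88 CPM in males (log2 2.49 ± 0.40, SE, adjusted p = 0.00107), and Abcb1b had 0.482 to 0.981 CPM in females and 1.65 to 4.48 CPM in males (log2 -1.99 ± 0.49, adjusted p = 0.0109). In the 4 male high fat diet libraries Abcb1a had 2.38, 10.6, 11.8 and 6.15 CPM and Abcb1b had 2.6, 0.543, 0.928 and 3.41 CPM, so replicates 2 and 3 were highest for the former and lowest for the latter. Both genes had expected counts that were not whole, and their counts were not added into 1 row. How RSEM divided reads that fit both was thus not tested. The normal diet female libraries held only 13.2 to 36.4 counts of Abcb1b. Abcb4 itself, at 245 to 415 CPM over males of both diets, showed no called difference in any comparison. Of its distinct 50-base words 3.31% occur in another gene, those sharing them being Abcb1a and Abcb1b.

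Among 14 other liver transport genes, 1 was called with diet in females and 2 in males, against 11.5% and 11.4% of all tested genes. On the normal diet 6 differed between the sexes, against 15.7%. This list shares genes with the Abc genes above: the call in females was Abcg5, and the 6 include Abcg5 and Abcb1a. In males Slc22a7, an uptake carrier for organic anions, went up from 15.2 ± 6.11 to 40 ± 17 CPM (SD, n = 4, log2 1.41 ± 0.34, adjusted p = 0.0162). Its high fat libraries had 55.7, 27.5, 23.2 and 53.7 CPM, all above the normal diet range of 6.56 to 20.1 CPM, with replicates 1 and 4 at about the same level and above replicates 2 and 3. This call was lost with only the 2 groups in the fit (0.082) and without the filter (0.0504). Slc51b, a subunit of a basolateral bile acid exporter, also increased in males, from 0.148 ± 0.0896 to 0.664 ± 0.103 CPM (log2 2.11 ± 0.54, adjusted p = 0.0179). Its normal diet libraries held 1 to 8 counts, and the call was lost without male normal diet replicate 1 (0.052) or 4 (0.0551). On the normal diet Slc51b was higher in females (log2 1.91 ± 0.54, adjusted p = 0.0241), which was lost without female normal diet replicate 1 (0.0536) or 2 (0.0634) or male normal diet replicate 1 (0.0539) or 4 (0.072). This call was also lost by limma on log2(TPM + 1) (0.0572). Abcg5 was higher in females as well (0.61 ± 0.13, adjusted p = 0.00407).

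Receptors and factors known to act on transporter genes were examined as RNA levels. Of 17 listed, 5 were called with diet in females (3 higher, 2 lower), 3 in males (1 higher, 2 lower) and 5 between the sexes on the normal diet. Over all tested genes these shares were 11.5%, 11.4% and 15.7%. Nr1i2, which encodes the xenobiotic receptor PXR, fell in females from 99.5 ± 6.94 to 57.5 ± 6.18 CPM (SD, n = 4, log2 -0.79 ± 0.10, adjusted p = 0.000109). In males it fell from 74.4 ± 4.47 to 56.1 ± 5.61 CPM (log2 -0.41 ± 0.10, adjusted p = 0.0143), a call lost on log2(TPM + 1) (0.0553) and log2(TPM + 0.1) (0.0524). Hnf4a, a hepatocyte master factor, fell in females (log2 -0.60 ± 0.12, adjusted p = 0.00331) and in males (-0.47 ± 0.11, adjusted p = 0.0139). The male call was lost without male normal diet replicate 3 (0.0582), and by limma on log2(TPM + 1) (0.0637) and log2(TPM + 0.1) (0.0608). Nfe2l2, which encodes the stress factor NRF2, rose in females (0.36 ± 0.10, adjusted p = 0.0224), but missed the threshold when leaving out female normal diet replicate 1 (0.0517) or 4 (0.0568) or female high fat diet replicate 4 (0.0682). Nfe2l2 was also not called without the filter on low counts (0.0727). Stat5b, a mediator of growth hormone signals, rose in males (0.71 ± 0.13, adjusted p = 0.00243).

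Between the sexes on the normal diet, Cux2, a repressor known from female liver, had 12.7 to 22.5 CPM in females and at most 0.428 CPM in males (adjusted p = 8.81e-09). Esr1, the estrogen receptor gene, was higher in females (log2 1.08 ± 0.13, SE, adjusted p = 3.72e-05), as was Nr1i2 (0.42 ± 0.10, adjusted p = 0.00908). These calls held in every setting tried. RNA levels of a receptor say nothing of its activity, and their part in the transporter values was not tested.

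Some measures moved with the groups beside the transporters. Of 13 tested clock genes, 7 were called with diet in females and 10 in males, against 11.5% and 11.4% of all tested genes. Nr1d1 had 13.3 ± 4.38 CPM (SD, n = 4) in females on the normal diet and 46.3 ± 8.93 CPM on the high fat diet, and 23.6 ± 5.57 and 6.28 ± 0.62 CPM in males. The summed CPM of the 6 hepatocyte markers found was lower on the high fat diet without overlap in females (102842 to 116472 against 80254 to 96885). The same held in males (84644 to 93676 against 55848 to 77653). The sum was also lower in males than in females on each diet without overlap. Alb made up most of it, with a mean of 90610 CPM in normal diet females, where the sum had a median of 107872 CPM. The single edgeR tests did not follow the sum between the sexes. Among normal diet mice 0 of the 6 were called higher in females and 1 lower. Among high fat diet mice 1 was called higher in females and 2 lower. With diet 0 were called higher and 2 lower in each sex. Hnf4a, reported above among the factors, is also in this list and among those called lower with diet in each sex. The 7 Kupffer cell and macrophage markers summed to 198 to 269.6 CPM in normal diet females and 311 to 425 CPM in high fat diet females, without overlap, and to 173 to 260.6 and 155 to 298 CPM in the male groups. Under high fat feeding this sum was higher in females than males without overlap, and 4 of the 7 were called higher by edgeR. On the normal diet the sexes overlapped and 0 were called. The 7 stellate cell markers summed to 324 to 336 and 312 to 348 CPM in the female groups. In males they summed to 219.8 to 263 CPM under normal and 274 to 392 CPM under high fat feeding. The sum was thus higher with the high fat diet in males, and higher in females than males on the normal diet, each without overlap. Tested singly by edgeR, 0 of the 7 were called with diet in males. With diet in females 2 were called higher, and 2 were higher in females than males on the normal diet. The 6 sinusoidal endothelial markers summed to 139 to 162 and 138 to 180.3 CPM in the female groups and 121 to 137 and 128 to 146 CPM in the male groups, with overlap between the diets in both sexes. On the normal diet the endothelial sum was higher in females without overlap, and 1 of the 6 was called higher by edgeR. The 7 cholangiocyte markers summed to 54.5 to 101 CPM across the 4 groups, again with overlap between the diets. Sums of the 6 red blood cell markers were 222 to 556 CPM, and those of the 6 lymphocyte markers 2.27 to 17 CPM. Both of these lists overlapped between the diets. The 5 adipocyte markers reached at most 2.97 CPM in the other groups and 10.9 CPM in high fat diet males. The 7 pancreatic acinar markers reached 6.16 CPM in normal diet females, 0.275 CPM in high fat diet females, 0.4 CPM in normal diet males and 28.4 CPM in high fat diet males. Of 5 kidney tubule markers 4 were at 0 in all 16 libraries. The part of these measures in the transporter results was not tested.

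For each transporter the gene with the most similar profile was sought among 7640 genes whose mean log2 CPM reached 3, as the highest Pearson r of log2 CPM over the 16 libraries. For Slco1a1 this was Trp53inp2 (r = 0.98), for Abcg2 Trip4 (0.97), for Slco1a4 Rida (0.96) and for Abcc4 Paox (0.94). For Abcc2, Abcb4 and Slco2b1 it was Crim1 (0.94), Acad11 (0.94) and Gypc (0.93), and for Abcc3, Slco1b2 and Abcc6 it was Abca8a (0.92), Ugt3a1 (0.89) and Ddah1 (0.88). Among the transporters, Slco1a1 and Abcg2 had an r of 0.91, and 0.45 after each group's mean was removed. The 16 points hold 4 groups and share libraries, so these values are descriptions.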

How the data were processed

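Liver poly(A) RNA libraries (NEBNext Ultra, NovaSeq) were described per the labels. The submitters' processing notes name STAR, RSEM and GRCm39, without versions. The annotation release and the strand setting are not given in the sources used here. The authors deposited RSEM expected counts per gene, of which 4.89% of entries were not whole, and TPM, scaled to transcript length and library by the authors. Symbols were matched by Ensembl identifier without version (51487 of 78317 genes).

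Expected counts were rounded. Genes were kept by filterByExpr (14781 genes, 99.94% of counts). edgeR 4.0.16 (R 4.3.3) with TMM scaling and the robust quasi-likelihood test was fitted to all 16 libraries with 1 mean per group. The 5 contrasts were tested, two-sided, and p-values adjusted by Benjamini-Hochberg over all tested genes. Standard errors were derived from each estimate and its F statistic. CPM are relative to TMM-scaled library sizes. The fit was tested on simulated data. Alternatives were DESeq2 1.42.0, limma 3.58.1 on log2(TPM + 1) and log2(TPM + 0.1) for genes with a mean of at least 0.5 TPM, other scaling, no filter, fewer groups, a replicate block, the close male pair averaged, and each library left out. P-values set each difference against the spread between these libraries, whose cages and litters are not given. The members, lists and tests were chosen with earlier results of these data known. All 10 members are named. Of the lists of other Slco, Abc and liver transport genes and of receptors and factors, the 3 called genes with the smallest p are named for each diet contrast, the interaction and the sex contrast on the normal diet. Clock and cell type markers are given by list. Promoter sequences are from RefSeq (GRCm38.p6).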

Additional observations from a re-analysis of the deposited data

Results flagged for a closer look

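Within groups, the lowest Slco2b1 library of males on the normal diet, replicate 2 with 95.5 CPM, stood apart from the other 3 (113 to 116 CPM). The lowest Abcg2 library of females on the high fat diet, replicate 1 with 22.1 CPM, stood apart from the other 3 (42.4 to 43.3 CPM). These are 2 of 40 gene and group combinations examined, and chance flags about 1 in 20. Without that library the fall of Abcg2 in females was still called.

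Slco2a1 changed with the diet differently in the sexes, with an interaction of 1.67 on the log2 scale by edgeR (adjusted p = 5.54e-06). In males the 4 high fat values were all lower than the 4 normal diet values, and the female groups overlapped.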

How the results depend on the processing

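The alternatives were chosen with earlier results of these data known. In females 3 transporters were called, and 2 on log2(TPM + 1) and on log2(TPM + 0.1), each within 1.5 times of the main count. With 1 library left out the counts of called transporters were 2 to 3 in females, 1 to 2 in males, 0 to 0 for the interaction, 2 to 5 between the sexes on the normal diet and 3 to 4 on the high fat diet. DESeq2 called 2 in males, against 1, and 2 interactions, against 0. On the normal diet 3 of the 5 sex differences were called without a filter on low counts. The replicate numbers share no stated animal, litter or day, and only 4 of 24 same-numbered pairs had deviations correlated over 0.1. With the replicate block 3 of the 5 sex differences on the normal diet were called, those of Slco1a1 (adjusted p = 0.0555) and Slco1a4 (0.0573) being lost, and Abcc1 in females was not (adjusted p = 0.0527). Only 1 of 16 libraries correlated best with its own number in every other group.

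By limma on log2(TPM + 1), which changes the test, the scale and the filter together, the median of all genes was 0.17 with diet in females, against 0.00 by edgeR, and 0.12 for the interaction and for the sexes on the high fat diet. Uncalled values near 0 changed sign. On log2(TPM + 1) and log2(TPM + 0.1), Slco1b2 was 0.17 and 0.17 with diet in females and 0.10 and 0.10 between the sexes on the high fat diet. Abcb4 was 0.052 and 0.053 with diet in females, 0.054 and 0.055 between the sexes on the high fat diet and 0.12 and 0.12 for the interaction, and the interaction of Abcc3 was 0.024 and 0.030. With the close male pair averaged, Abcc6 in males was -0.00295, the interaction of Abcb4 0.011 and the sex difference of Slco1b2 on the high fat diet 0.039. With 1 library left out, log2 values ranged in females from -0.14 to 0.13 for Slco1b2 and from -0.0025 to 0.077 for Slco2b1. In males they ranged from -0.30 to 0.20 for Abcc3, from -0.0049 to 0.25 for Abcc6 and from -0.069 to 0.12 for Abcg2. For the interaction they ranged from -0.25 to 0.54 for Slco1a4, from -0.083 to 0.20 for Abcc2, from -0.018 to 0.23 for Abcc6 and from -0.16 to 0.026 for Abcb4. Between the sexes they ranged from -0.13 to 0.049 for Abcb4 on the normal diet, and on the high fat diet from -0.16 to 0.11 for Slco1b2 and from -0.18 to 0.31 for Abcc3. The cause was not tested.

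Among all tested genes 1700 were called with diet in females, 2667 on log2(TPM + 1) and 2570 on log2(TPM + 0.1). Without female normal diet replicate 1, 2 or 4 there were 1021, 1062 and 1074, and without female high fat diet replicate 4 there were 947. The interaction had 100, 328 by DESeq2, 58 with the close pair averaged, and with 1 library left out from 51 (female normal diet replicate 2) to 176 (male high fat diet replicate 1), with 57 without female normal diet replicate 4 and 62 and 58 without male high fat diet replicates 2 and 3. Without male normal diet replicate 3 males had 1113, against 1684. The sexes on the normal diet had 2322, with 1523 and 1325 without female normal diet replicates 1 and 2 and 1378 without male normal diet replicate 3. On the high fat diet they had 3022, with 1958 for only the groups compared and 1974 without male high fat diet replicate 4. Abcc4 had the lowest mean CPM of the 10 transporters in each group, at 1.94 to 8.39 CPM.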

Other observations

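Within the female high fat diet group, Slco1a1 was low in replicates 1 and 4 (5.17 and 3.1 CPM) and higher in replicates 2 and 3 (29.9 and 36.7 CPM). Tgtp1, an interferon-inducible GTPase gene chosen after its values were seen, had 263 and 530.7 CPM in replicates 1 and 4 and 17.5 and 35.1 CPM in replicates 2 and 3. Tgtp1 has near-identical copies, so its own level is uncertain. With 4 libraries no relation can be tested.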
